A study of Caenorhabditis elegans with 4 samples.

Results

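The regions described here are the JUN-1::GFP peaks on chromosome II of Caenorhabditis elegans, taken as every row of the authors' combined peak list whose chromosome is II. There are 370 of them among the 4152 peaks of that list (8.91%, exact 95% interval 8.06 to 9.82). The replicate 1 list had 165 peaks on II among 1862 (8.86%) and the replicate 2 list had 368 among 4143 (8.88%). Peaks on II covered 218.7 kb in the combined list, 118.7 kb in replicate 1 and 216.8 kb in replicate 2. Positions are in the WormBase WS180 build.

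The lists come from chromatin immunoprecipitation with sequencing (ChIP-seq) of hermaphrodite worms at L4, the last larval stage, grown at 20 °C and crosslinked with 2% formaldehyde. All libraries are from the strain OP234, an unc119(ed3) background with the transgene wgIs234, in which jun-1 (T24H10.7) carries TY1, EGFP and FLAG tags beside unc119 as the selected marker. The strain was made by bombardment and outcrossed 3 times, so it is 1 transgenic line, and each library is from a population of whole worms. The series has 2 ChIP libraries, each with a peak list, and 2 input libraries, which were not analysed here. No background level can therefore be set beside the values. The sample descriptions contradict the titles: "input DNA" is the description of the ChIP libraries. The titles were followed because the peak lists belong to those libraries, and neither label was checked. Separate cultures are not stated for the replicates, and what differs between them may be technical.

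JUN-1 is the worm relative of Jun, a subunit of the AP-1 transcription factor. Proteins of this family bind DNA as dimers through a basic region, and a leucine zipper holds the dimer together. The GFP antibody collects the tagged protein with the DNA crosslinked to it, and a peak caller, here PeakSeq, marks stretches with more reads than its control. A peak is therefore a called region, and whether it is a site of JUN-1 binding was not tested. On worm autosomes the central part of the chromosome is richer in highly expressed genes and the arms are richer in repeats. jun-1 is itself annotated on chromosome II by RefSeq, but in another build, so its position was not compared with the peaks and no gene was assigned to any of them.

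Chromosome II was the most sparsely covered chromosome of the combined list. It had 24.3 peaks per Mb over its called span of 15209115 bp, from base 24292 to base 15233406, against 36.9 per Mb on IV, 36.9 on V, 39.3 on X, 48.4 on III and 69.2 on I. It held 15.3% of the summed spans and 8.91% of the peaks. Peaks took up 1.44% of its bases, against 1.84% to 2.74% on the other chromosomes. The density on II was 10.8 per Mb in replicate 1 and 24.2 in replicate 2, against 20.2 and 44.9 per Mb over the other chromosomes together. Both replicates thus had fewer peaks per Mb on II than elsewhere, a difference that was not tested here.

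The left stretch of the chromosome held the fewest peaks. With the span cut into 3 equal stretches, the left one (24292 to 5093996) held 78 peaks or 21.1%, the central one (5093997 to 10163701) 158 or 42.7% (37.6 to 47.9), and the right one (10163702 to 15233406) 134 or 36.2%. Over all chromosomes, 40.6% of combined peaks lay in the central stretch, which lies within the interval for II. The left stretch of the other chromosomes together held 30.5% of their peaks, between 28.7% and 33.6% on each, so II had the smallest left share. Replicate 1 had 35, 68 and 62 peaks in the left, central and right stretches of II, and replicate 2 had 78, 156 and 134. The left share was 21.2% in both lists.

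Within 15 equal parts of 1.01 Mb, the count was higher from the border of the left and central stretches onwards. Each of the first 5 parts held 12 to 19 combined peaks, and the sixth, from 5093997 to 6107937, held 42, the most of any part. The other 9 parts held between 20 and 35. In replicate 1 the counts ran from 4 to 21 with a median of 10, and the highest was in part 12 (11177643 to 12191583), where the combined list had 35. Replicate 1 called the smallest shares of the combined peaks in parts 3, 8 and 13, with 4 of 17, 6 of 26 and 7 of 26.

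**Figure D1:**
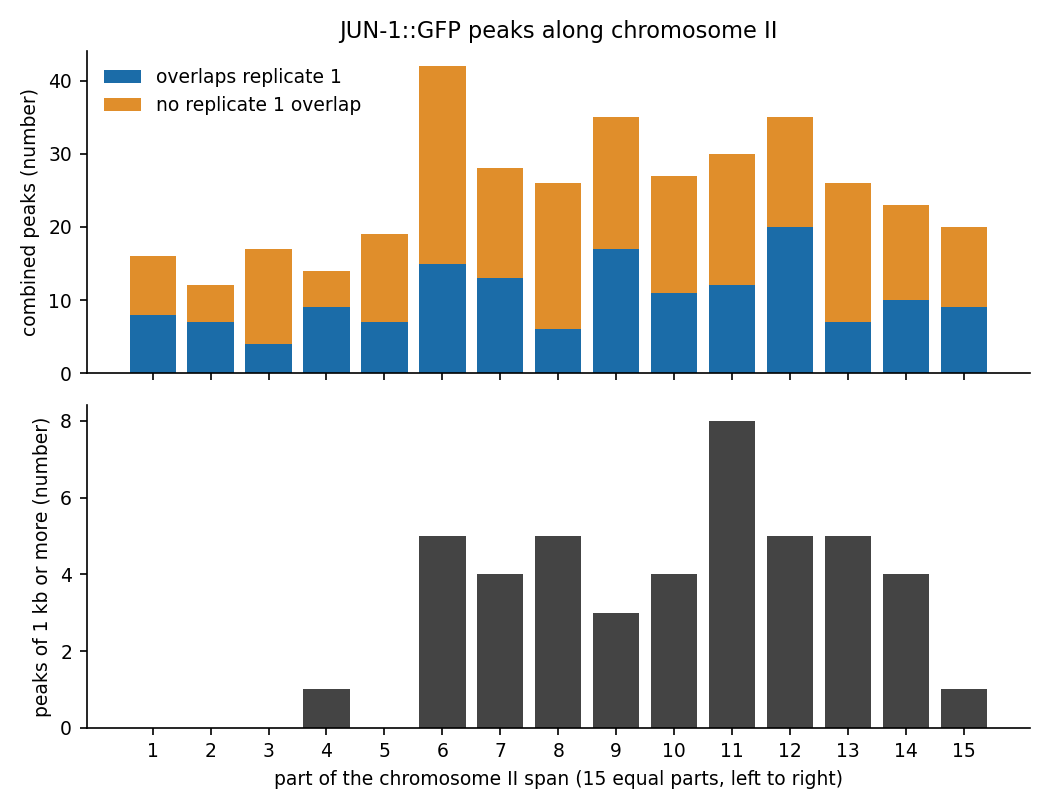
The upper bars count the combined peaks in each of 15 equal parts of the chromosome II span, divided into peaks that overlap a replicate 1 peak and peaks that do not. The lower bars count the peaks of 1 kb or more. The first 5 parts hold 12 to 19 peaks each and 1 broad peak among them, and the sixth part holds 42 peaks.

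Peaks in the left stretch were also narrower. Their median width was 358.5 bp, against 411 bp in the central and 504.5 bp in the right stretch, while the median −log10 q was alike in the left (6.08) and central (6.01) stretches and 7.14 in the right. The left stretch held 1 of the 45 peaks of 1 kb or more on II, at II 3244869 to 3246196 (1328 bp, q = 3.4e-13), against 21 in the central and 23 in the right stretch. The share of combined peaks also called in replicate 1 was 44.9% (33.6 to 56.6) in the left, 39.2% in the central and 43.3% in the right stretch. The intervals of these shares overlap.

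Over the whole of II the median width was 415.5 bp, with quartiles of 283.8 and 688 bp, and the widths ran from 1 to 7757 bp. The other chromosomes together had a median of 357 bp, and X, at 418 bp, was close to II. In replicate 1 the median was 409 bp on II and 368 bp elsewhere, and in replicate 2 it was 416 and 358 bp. Peaks of 1 kb or more made up 45 of 370 on II (12.2%, 9.01 to 15.9), against 8.96% of all combined peaks and 8.65% (7.77 to 9.59) of those off II. X had a like share, 12.6%, and I the lowest, 4.84%. The 45 broad peaks on II held 84.6 kb, or 38.7% of the called bases there, against 30.2% off II. The narrowest peak counted as broad was 1019 bp wide and the widest below the limit 970 bp, with nothing between them on II. These broad peaks are those of the combined list. In replicate 1 the broad share was 13.3% (8.55 to 19.5) on II and 6.19% (5.09 to 7.44) off II. There X had 7.78% and IV the lowest share, 4.52%. In replicate 2 it was 12.2% on II, 12.9% on X and 8.69% off II.

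In the combined list the strongest region of the chromosome, II 10541863 to 10549619, was also its widest, at 7757 bp. It ranked at 17 in the combined list with q = 8.48e-120, and replicate 2 gave the same ends and q. In replicate 1 it was called as 3 separate peaks of 2524, 2571 and 1796 bp, with q-values of 3.78e-30, 5.8e-11 and 3.69e-13, which together covered 88.8% of it. The first ran from 10541874 to 10544397, the second from 10544601 to 10547171 and the third from 10547764 to 10549559, so the outer ends lay close to those of replicate 2 and the breaks were short.

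The second region, II 5335287 to 5341824, was 6538 bp wide with q = 3.83e-116 in the combined list and replicate 2, at rank 19. Replicate 1 again had 3 peaks in its place, of 994, 2921 and 1738 bp, with q-values of 5.73e-08, 7.75e-31 and 4.53e-18, covering 86.4%. Its strongest call there lay in the middle, from 5336552 to 5339472. Combined peaks that spanned more than 1 replicate 1 peak numbered 5 on II. The other 3 were II 9283601 to 9285515, II 9618529 to 9620754 and II 11974064 to 11975806, each with 2 replicate 1 peaks inside.

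A pair of narrower regions followed, each with 1 peak in every list. II 5543301 to 5544435 (1135 bp, rank 25) had q = 3.78e-103 in the combined list and replicate 2 and q = 9.32e-57 in replicate 1, where it ran from 5543306 to 5544427. II 5844479 to 5845332 (854 bp, rank 38) had q = 1.2e-82 in those lists and 4.32e-47 in replicate 1. In replicate 1 these ranked at 22 and 26, ahead of every piece of the 2 wider regions. On II only 2 replicate 1 peaks ranked ahead of these, at 3 and 19, and neither had a combined counterpart.

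The next region, II 6344889 to 6349064, was broad at 4176 bp and was a single peak of 3684 bp in replicate 1. Its q was 1.21e-71 in the combined list and 1.48e-38 in replicate 1. II 2378279 to 2379126 (848 bp) followed with q = 3.28e-62 and 3.54e-22, and was the sole region of the left stretch among the 15 with the smallest q. Of those 15, 8 lay in the central stretch and 6 in the right one.

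The remaining 9 of the 15 had combined q-values between 1.25e-44 and 2.81e-34. They were II 5660577 to 5662981, II 11634846 to 11636314, II 11149597 to 11151296, II 9283601 to 9285515, II 10563095 to 10563675, II 9618529 to 9620754, II 11974064 to 11975806, II 9616886 to 9618245 and II 13834273 to 13835073. All 15 had a replicate 1 peak, which covered between 42.6% of the region (II 11149597 to 11151296) and 98.9% (II 5543301 to 5544435), with a median of 81.6%. The weakest of these in replicate 1 was II 9618529 to 9620754, whose better call had q = 5.67e-08 and ranked at 601. In all, 11 of the 15 were 1 kb wide or more, and 6 were among the 15 widest as well.

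Width alone did not mark a region as called in both replicates. Of the 15 widest peaks, 12 had a replicate 1 partner. The exceptions were II 11615898 to 11618547 (2650 bp, q = 4.78e-13), II 10706874 to 10709085 (2212 bp, q = 3.28e-16) and II 7682498 to 7685028 (2531 bp, q = 5.94e-06). The first and the second of these had the same ends in replicate 2, but the last was 1035 bp wide there, from 7683993 to 7685027, with q = 0.000158.

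Others among the widest were only in part called by replicate 1. Its peaks covered 76.9% of II 8745798 to 8748215, 44.5% of II 8014857 to 8017132, 45.9% of II 8743246 to 8745515 and 54.2% of II 13197946 to 13200058. They covered 74.8% of II 11618762 to 11620830 and 17.1% of II 15228884 to 15230677. The other 30 broad peaks were 1019 to 1743 bp wide.

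**Figure D2:**
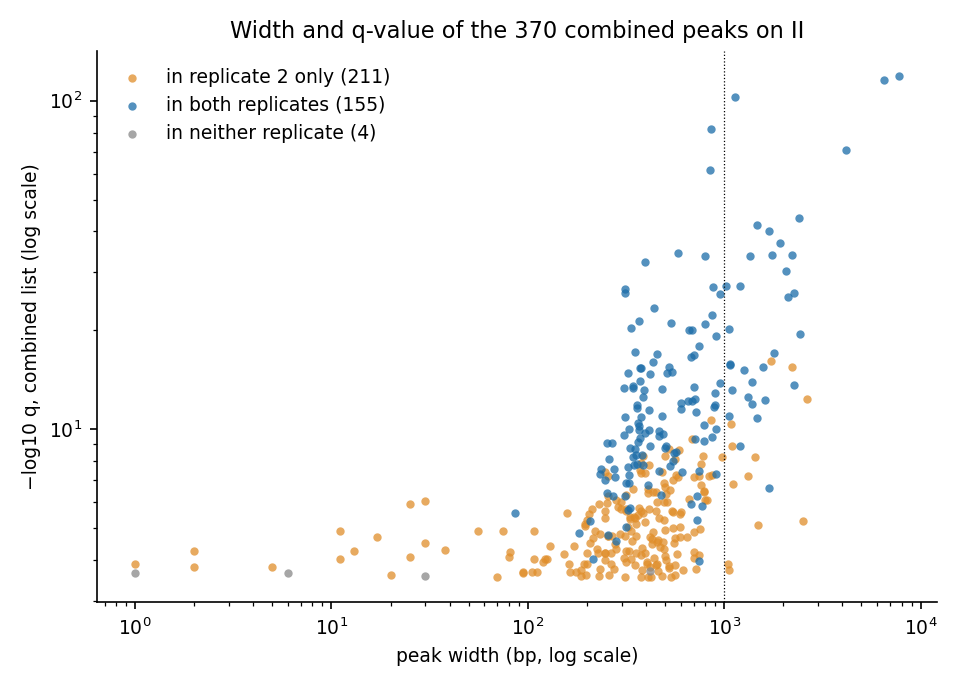
Each point is 1 of the 370 combined peaks on II, with its width in bp and its −log10 q in the combined list, both on log scales, and its colour shows which replicate lists overlap it. The dotted line marks 1 kb. Peaks in both replicates reach −log10 q of 119, and the highest value of a peak in replicate 2 alone is 16.1.

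At the other end, 17 peaks on II were under 50 bp (4.59%, against 4.55% of all combined peaks), and 6 were 10 bp or shorter. Calls of 1 or 2 bases stood at II 2126940 to 2126941, II 5028348, II 9242863 and II 10220847 to 10220848, with q-values between 5.81e-05 and 0.000235. Of the 17, 0 overlapped a replicate 1 peak, with an exact 95% interval of 0 to 19.5%. Off II, 5 of 172 such peaks did (2.91%, 0.95 to 6.65), which lies within that interval.

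Of the 370 peaks, 155 overlapped a replicate 1 peak by at least 1 bp (41.9%, 36.8 to 47.1), against 42% of all combined peaks. A replicate 2 overlap was found for 366 (98.9%, 97.3 to 99.7), against 97.9% of all. As 323 of the 370 repeat a replicate 2 peak in both ends and q, this overlap is not separate support. The 155 were all in replicate 2 as well (41.9%, the same share as in the whole list), 211 were in replicate 2 alone, 0 were in replicate 1 alone and 4 were in neither (1.08%, against 2.02%). In reverse, 162 of the 165 replicate 1 peaks on II overlapped a replicate 2 peak (98.2%, 94.8 to 99.6), against 97.6% of all replicate 1 peaks. Of the replicate 2 peaks on II, 155 of 368 overlapped replicate 1 (42.1%), the same as the 42.1% of the whole replicate 2 list. The 42% of all combined peaks is a mean over unlike chromosomes. The share of combined peaks in replicate 1 was 24% on I, 46.2% on V, 48.1% on IV, 48.4% on X and 52.9% (49 to 56.7) on III. II therefore stood above I and below the other 4, and its interval did not overlap that of III, differences that were not tested.

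The peaks called by both replicates were wider and had smaller q-values. Their median width was 521 bp and median −log10 q 11.6, against 377 bp and 4.79 for the 211 in replicate 2 alone. Of the 45 broad peaks, 33 were called in both replicates and 12 in replicate 2 alone. With the 370 peaks ordered by q and cut into 4 equal groups, replicate 1 overlapped 87 of 92 in the strongest (94.6%), 52 of 93 in the second (55.9%), 14 of 92 in the third (15.2%) and 2 of 93 in the weakest (2.15%, 0.262 to 7.55). The corresponding shares off II were 90.1%, 54.3%, 17.2% and 6.45%. The fall with rank was thus present on II as on the other chromosomes. Since the combined q-values on II mostly repeat those of replicate 2, the groups rank replicate 2 peaks rather than pooled data.

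By width, replicate 1 support on II was 35.2% for 210 peaks of 50 to under 500 bp, 49% (38.7 to 59.3) for 98 peaks of 500 to under 1000 bp, 71.9% (53.3 to 86.3) for 32 peaks of 1000 to under 2000 bp and 76.9% (46.2 to 95) for 13 peaks of 2000 bp or more. Off II the shares for the same classes were 32.9%, 61% (57.6 to 64.4), 79.1% (73.6 to 83.9) and 94.2% (85.8 to 98.4). Shares were lower on II in the classes of 500 bp or more, but the intervals overlapped in each class and the difference was not tested. Their median −log10 q was also lower on II, at 7.42 against 9.62 in the first of these classes, 13.5 against 17.2 in the second and 25.9 against 43.4 in the widest. The part of the q-values in the difference was not tested. Across peaks, Spearman's rho of width and −log10 q was 0.55 on II (370 peaks) and 0.66 off II (3782 peaks), a description of peaks that share libraries and depth.

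The strongest replicate 2 peaks on II with no replicate 1 counterpart were moderate in rank. They were II 11151512 to 11153244 (1733 bp, q = 7.1e-17, rank 493 in replicate 2), II 10706874 to 10709085 (rank 526), II 11615898 to 11618547 (rank 772), II 5332331 to 5333182 (852 bp, rank 957) and II 11012344 to 11013430 (1087 bp, rank 1005). The first lay just right of II 11149597 to 11151296, the fourth in the cluster around the second-strongest region, and the third just left of II 11618762 to 11620830. The 4 combined peaks found in neither replicate had q-values of 0.000208 to 0.000268. The 3 with the smallest q were II 7553409 to 7553825, II 9242863 and II 9280484 to 9280489.

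Matched one to one, 155 replicate 1 and replicate 2 peaks on II were ranked alike. Spearman's rho of their −log10 q was 0.83, within the 0.77 (V) to 0.89 (X) of the other chromosomes. Replicate 2 gave the smaller q in 154 of the 155 pairs. Its peak was wider in 138, narrower in 16 and equal in 1, with a median ratio of 1.22 (quartiles 1.09 and 1.5), against medians of 1.19 to 1.29 on the other chromosomes. Midpoints differed by a median of 27 bp and by 100 bp or less in 115 pairs. The depth of the libraries is unknown, and a deeper library can give smaller q-values at the same enrichment, so these differences in q do not rank the replicates by binding.

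**Figure D3:**
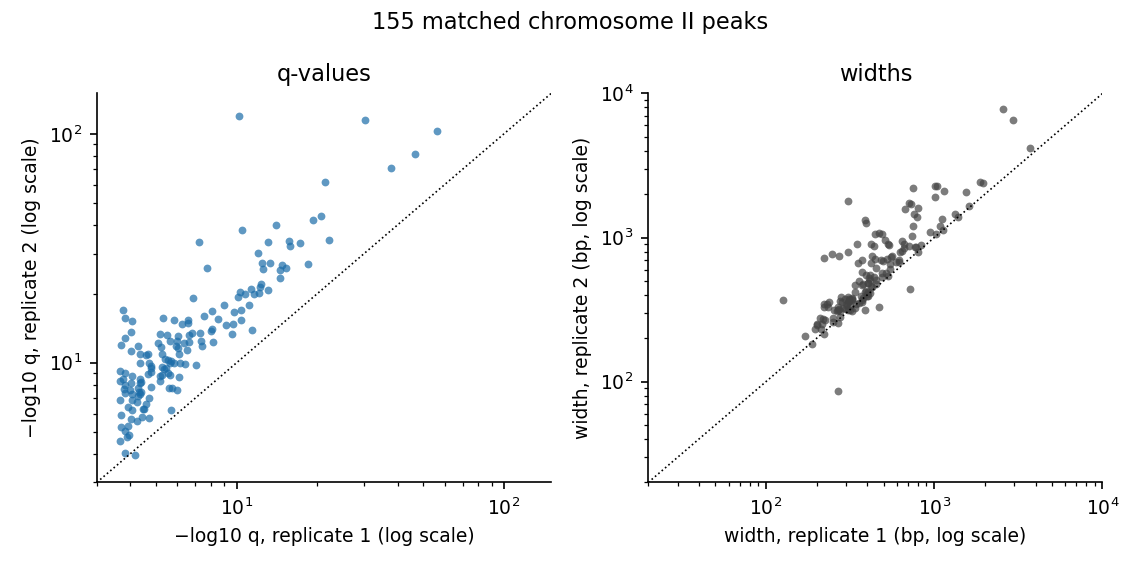
The 155 matched peaks on II are plotted by −log10 q (left) and width in bp (right) in replicate 1 and replicate 2, on log scales, with a dotted line of equality. Nearly all points lie above the line in the left panel (154 of 155), and 138 do so in the right panel.

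In the combined list, clusters were fewer on II than on any other chromosome. With a cluster defined as 3 or more combined peaks no more than 5000 bp apart, end to start, II had 22 clusters with 81 peaks (21.9%, 17.8 to 26.5), against 35.8% of all combined peaks and 25.8% (X) to 48.3% (I) on the other chromosomes. A chromosome with fewer peaks per Mb has fewer neighbours within a fixed distance, and the part of density in this difference was not tested. The replicate 1 list had 31 of 165 peaks in 9 clusters (18.8%, 13.1 to 25.6) and replicate 2 had 80 of 368 in 22 (21.7%). In replicate 1 the clustered share was lower on X (15.9%), IV (17.2%) and I (17.9%), so II was not the lowest in that list. Of the 22, 12 lay in the central stretch, 8 in the right and 2 in the left. A further 70 peaks stood in pairs and 219 stood alone.

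Clustered peaks on II were wider and stronger than the others. Their median width was 705 bp against 379 bp, and their median −log10 q 8.9 against 5.81. They included 24 of the 45 broad peaks, in 13 of the 22 clusters. Replicate 1 overlapped 45 of the 81 clustered peaks (55.6%) and 110 of the 289 others (38.1%). The matching shares off II are not given here, so whether this contrast is particular to II was not tested. In 2 clusters every peak had a replicate 1 partner, and in 3 none did. Clusters and strength were both taken from the same list, so these values describe it and were not tested.

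The largest cluster, II 5321640 to 5346644, held 8 peaks in 25 kb around the second-strongest region, and 46.5% of it was called. Replicate 2 had all 8 with the same q-values. Replicate 1 called 3 of them, namely II 5329859 to 5330808 (q = 2.06e-26 combined and 2.88e-13 in replicate 1), II 5333604 to 5334699 (7.78e-14 and 9.15e-07) and the 6538 bp region itself. The 5 that it did not call had combined q-values between 2.24e-11 and 0.000184. Just the strongest members of this cluster were thus found in both libraries.

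The strongest combined region of II headed another cluster, II 10541863 to 10563675, of 5 peaks in 21.8 kb. It ended with II 10563095 to 10563675, a narrow peak of 581 bp with q = 4.6e-35 in the combined list and 5.61e-23 in replicate 1. Replicate 1 had a partner for 4 of the 5 and lacked II 10555359 to 10556043 (q = 4.88e-10). No other combined peak followed for 141141 bp.

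More compact were II 8739217 to 8748215, with 5 peaks in 9 kb of which 65.8% was called, and II 9054565 to 9063569, with 5 peaks in 9.01 kb of which 24% was called. Replicate 1 had 3 and 4 of their peaks. In the first, 2 broad peaks of 2270 and 2418 bp stood 282 bp apart. In the second all widths were between 207 and 605 bp, and its strongest peak, II 9060164 to 9060697, had q = 8.16e-22 in the combined list and 5.27e-12 in replicate 1.

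The clusters II 9280484 to 9285515 and II 8784380 to 8790363 had 4 peaks each, of which replicate 1 had 2 and 3. The first of them ended in the 1915 bp region ranked at 121 and began with a 6 bp peak that neither replicate list held. The second had peaks of 86 to 955 bp, the strongest with q = 1.53e-14. No neighbouring combined peaks on II were closer than 209 bp.

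Peak-free stretches were long on II. The median distance between neighbouring combined peaks was 19.1 kb, with quartiles of 4.57 and 53.7 kb. Peak-free stretches of 100 kb or more numbered 47 and made up 7.45 Mb, or 49% of the span, against 23% over the other chromosomes and between 9.97% (I) and 34.3% (V) on each. In replicate 1, 56 such stretches made up 78.9% of the span of II, against 54.7% off II. In replicate 2 they made up 49.2% and 22.9%. As with clusters, fewer peaks leave longer gaps, and the part of density was not tested.

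Of the 10 longest peak-free stretches, 7 lay in the left stretch of the chromosome, 1 in the central and 2 in the right. The longest, II 1323810 to 1659940, spanned 336.1 kb. In the central stretch the longest was II 6047984 to 6327251, of 279.3 kb, which began within the densest part and ended left of the 4176 bp region. Neither replicate list had a peak in these.

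The third and the fifth longest, II 1852047 to 2126939 (274.9 kb) and II 2126942 to 2378278 (251.3 kb), were separated by a peak of 2 bp with q = 0.000162. Replicate 1 did not call that peak and had a gap of 526.4 kb there, ending at the strongest region of the left stretch. The others were II 3523886 to 3786581 (262.7 kb), II 14815169 to 15025238 (210.1 kb), II 13462381 to 13668987 (206.6 kb), II 4103865 to 4299250 (195.4 kb), II 3246197 to 3439203 (193 kb) and II 411266 to 603100 (191.8 kb). Replicate 2 had no peak in any of the 10, and replicate 1 had 1, a 2 bp call at II 14945088 to 14945089 (q = 0.000111).

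**Figure D4:**
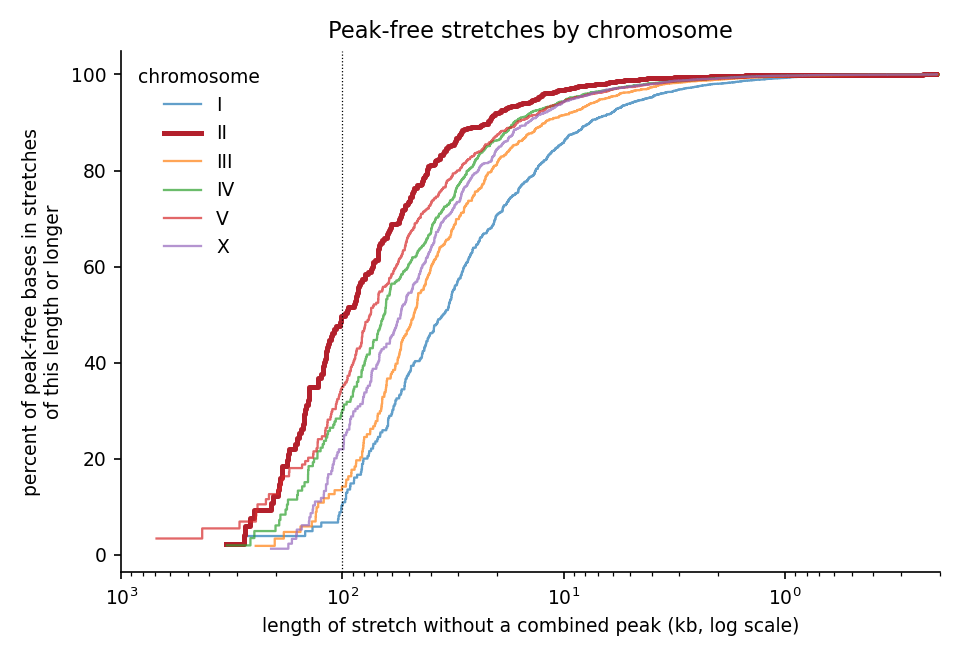
For each chromosome the line gives the percent of its peak-free bases that lie in stretches of at least the length on the x axis, in kb on a log scale that falls from left to right. At the dotted line of 100 kb the line for II is above those of the other 5 chromosomes, where the 47 stretches on II make up 49% of its whole span.

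Replicate 1 had 3 peaks on II with no counterpart in either other list. One was the 2 bp call above. The others, II 9108624 to 9123778 (15155 bp, q = 1.13e-59) and II 9124038 to 9133977 (9940 bp, q = 1.13e-128), lay 259 bp apart and were the widest peaks of that list. They ranked at 19 and 3 in replicate 1, ahead of every other replicate 1 peak on II. They alone made up 21.1% of the bases called on II in replicate 1, and without them the called bases there went from 118.7 to 93.6 kb. With them II held 13% of all replicate 1 bases and without them 10.5%, beside 10.5% in replicate 2. The widest remaining replicate 1 peak on II spanned 3684 bp.

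In the combined list this stretch lay inside a peak-free gap of 148.1 kb, from 9063570 to 9211715, which was in place 23 among the gaps of II by length. The nearest combined peak ended 45054 bp to the left, in the compact cluster at 9054565 to 9063569, and the nearest on the right began 77738 bp away. Replicate 1 itself had 4 peaks within 100 kb on the left, all in that cluster, and 0 within 100 kb on the right. Replicate 2 had 6 and 1. The position of jun-1 relative to this stretch was not tested.

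**Figure D5:**
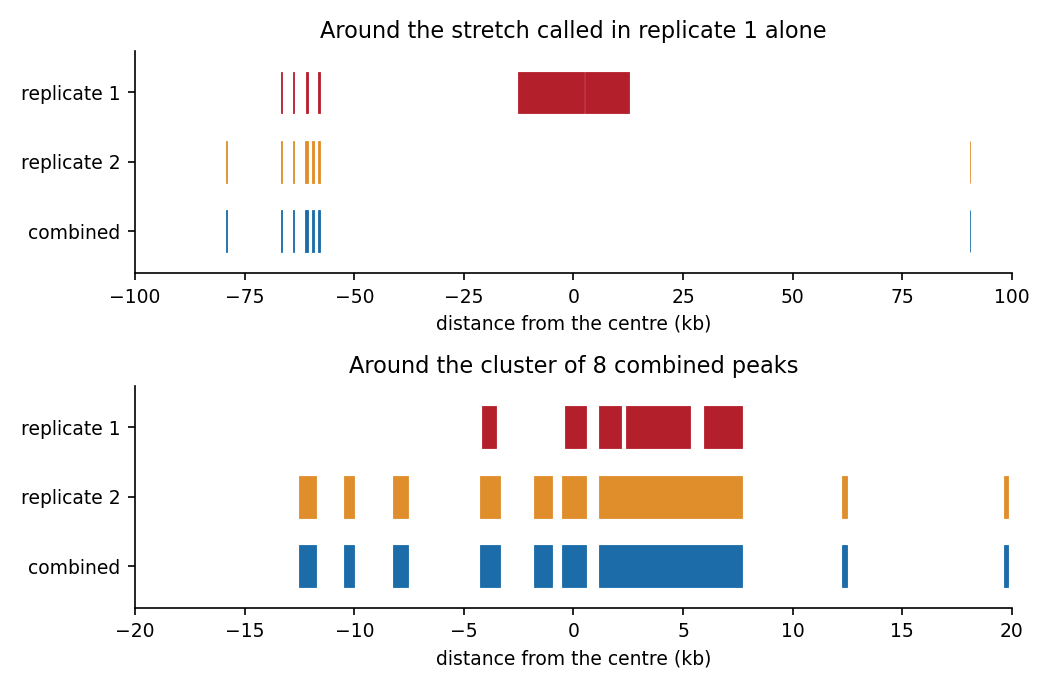
Called peaks of the 3 lists, drawn to scale as boxes against the distance in kb from the centre of the stretch called in replicate 1 alone (upper panel) and of the 8-peak cluster (lower panel). In the upper panel replicate 1 has a pair of adjoining boxes at the centre where the other lists are empty, and in the lower panel the 6538 bp box of replicate 2 and the combined list has 3 replicate 1 boxes in its place.

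The combined list repeated replicate 2 on II except in a pair of windows. Over the chromosome, 323 of 370 combined peaks (87.3%, 83.5 to 90.5) matched a replicate 2 peak exactly in both ends and in q, against 64.7% of all combined peaks, 87.2% on X and 47.6% (I) to 65.1% (IV) on the other chromosomes. With windows of 1 Mb counted from base 1, a division chosen after the values were seen, both lists were identical in 14 of the 16 windows of II, with 321 peaks. All 47 combined peaks that differed lay from 7 to 8 Mb and from 9 to 10 Mb, where 18 of 19 and 29 of 30 differed. The peaks that did not differ there were II 7945122 to 7945451 and II 9500862 to 9501190.

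Within these windows the combined peak contained its replicate 2 partner in all 45 pairs, 18 in the first window and 27 in the second, and was wider in 17 and 26 of them. The median gain was 7 bp in the first window and 8 bp in the second. The largest gain, 1496 bp, was at II 7682498 to 7685028, and the next on II was 48 bp. The q-value was unchanged in 10 of 18 and 8 of 27 pairs. It was smaller in the combined list in 1 and 10 pairs and larger in 7 and 9.

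The second window also holds the stretch called in replicate 1 alone, over which the combined list has no peak. All 4 combined peaks with no counterpart in either replicate and both replicate 2 peaks on II with no combined counterpart, II 7529009 to 7529548 (q = 0.000211) and II 9729266 to 9729276 (q = 0.000268), lay in these windows. Over the 6 chromosomes, 67 of 102 such windows were identical in both lists and 31 differed in more than 90% of their combined peaks. How the combined list came to differ by window was not tested.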

How the data were processed

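The authors deposited 3 peak lists, from ChIP replicate 1, ChIP replicate 2 and both combined. Per the file headers positions are in WormBase WS180, and each row names PeakSeq and carries a q-value written by the authors' caller, repeated in the last column of all 10157 rows. Neither the aligner, the PeakSeq version, the q limit, the use of the inputs nor the way of combining is given in these sources. The lists hold no read counts, and depth is unknown.

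Peaks were called shared at an overlap of at least 1 bp and matched one to one by shared bases. A chromosome's span was taken between its outermost called bases in any list. Shares have exact 95% intervals (Clopper-Pearson) that reflect counting error alone and treat peaks as independent, although peaks cluster. No significance test was run: peaks of 1 list are not replicates and 2 libraries form 1 group. Overlap, cluster and gap counts were checked on simulated lists. The q-values were ranked and summarised within a list and compared between lists for identity. For matched peaks they were also set side by side as a description.

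Named regions were the 15 with the smallest q, the 15 widest, the 10 longest gaps, the 6 largest clusters and the peaks of 1 list alone. The members and these rules were chosen with earlier results of these data known. Genes and sequences were not assigned, as the RefSeq table is of another build. Python 3.11.15, numpy 2.4.6, scipy 1.17.1, pandas 2.3.3 and matplotlib 3.10.9 were used.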

Additional observations from a re-analysis of the deposited data

How the results depend on the processing

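Of 72 alternatives over 14 values, 40 stayed within the 95% interval of a share, 1.5 times a count, or 1 SD between the replicate lists for other values (for the rank correlation, the SD over the 6 chromosomes, 0.0428), and 32 moved. The share of peaks on II stayed within its interval throughout, between 8.86% and 9.15%, and so did the central share, between 40% and 42.7%. The replicate 1 list in place of the combined list gave 8.86% and 41.2%, and the replicate 2 list 8.88% and 42.4%. As 323 of the 370 combined peaks on II repeat a replicate 2 peak, the replicate 2 list is not a separate check. With an overlap of 50% of both peaks, replicate 1 support went from 41.9% to 35.4%, the replicate 2 peaks found in replicate 1 from 42.1% to 35.6%, the replicate 1 peaks found in replicate 2 from 98.2% to 79.4%, and the rank correlation from 0.83 to 0.90. In the better-ranked 50% of a list, these supports were 74.7% and 75.1%, replicate 2 support was 100%, and II had 12.5 peaks per Mb, 11 clusters, a longest gap of 526.2 kb, a median width of 547.5 bp, 21.6% broad peaks and a median −log10 q of 9.98. Among combined peaks in both replicate lists it had 10.2 peaks per Mb, 14.2% of peaks in 7 clusters, a longest gap of 526.2 kb, a median width of 521 bp, 21.3% broad peaks and a median −log10 q of 11.6. Both settings keep fewer peaks by construction. Without peaks under 50 bp, replicate 2 support was 99.7%, the median width 431 bp and the longest gap 526.2 kb, since the 2 bp peak that divides it is left out. A linking distance of 2000 bp gave 14 clusters with 12.4% of peaks, and 10000 bp gave 34 with 35.4%. Single replicate lists were also put in place of the combined list, replicate 1 first and replicate 2 second. They gave 10.8 and 24.2 peaks per Mb and 9 and 22 clusters with 18.8% and 21.7% of peaks. Their longest gaps were 526.4 and 336.1 kb and their median widths 409 and 416 bp. Broad peaks made up 13.3% and 12.2%, and the median −log10 q was 5.72 and 6.28. For density, longest gap, median width and median −log10 q, the limit was itself taken from these replicate lists. As the combined values lay close to those of replicate 2, replicate 1 had to move and replicate 2 to stay. These outcomes are in the tally but were fixed by that limit. The causes of the other moves were not tested. Leaving out the 8-peak cluster, an alternative chosen after seeing the data, gave 42% replicate 1 support and 20.2% of peaks in clusters. No paired analysis was possible because peaks of the input libraries were not analysed and both ChIP libraries are of 1 group. Depth is unknown, and whether regions missing from either replicate list were undetected there was not tested.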
